A study of Homo sapiens with 12 samples.

Results

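The matrix metalloproteinases (MMPs) and their tissue inhibitors (TIMPs) were followed in A549 cells, a line from a human lung adenocarcinoma that keeps some traits of alveolar type II cells, grown as monolayers. The 10 genes were MMP1, MMP2, MMP3, MMP9, MMP10, MMP13, MMP14, TIMP1, TIMP2 and TIMP3. They were taken by the gene symbols of the platform annotation, out of 18132 genes measured, and 26 of the 44987 probe sets that carry a single symbol belong to them. For each gene the brightest of its probe sets, by its mean on the 12 arrays, gave the value, and the other probe sets are described too.

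Affymetrix PrimeView arrays measured total RNA in 4 groups of 3 arrays. The first had a 2 h heat shock and was then wounded, the second had the 2 h heat shock alone, another was wounded alone, and the last was an untreated control. The labels give 4 h for wounding, which was read as the time of both wounded groups. All groups were A549 cells bought from a repository and kept in RPMI medium with serum on uncoated plastic, and the series asked how the heat shock response alters wounded lung epithelium. The labels give neither the temperature nor the time at which cells with the heat shock alone were lysed. They do not state separate cultures within a group either, and the codes S2a, S2b and S3a in the descriptions of samples 1, 2 and 3 of each group are unexplained. The p-values measure only the spread between these samples, which may be technical. A549 is a single tumour line on plastic, without stromal cells or a native matrix.

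MMPs are zinc-dependent endopeptidases that cut collagens, laminins, fibronectin and other extracellular proteins, and most are secreted as inactive proenzymes. TIMPs bind active MMPs and block them, so the proteolysis around a cell depends on the levels of both. In injured epithelium, MMP1 and MMP10 are known from cells at the wound edge, where matrix must be cut and rebuilt as the sheet closes. Transcription of MMP1, MMP3, MMP9 and MMP10 is known to respond to AP-1, the FOS and JUN family of factors.

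Both secreted proteases MMP1 and MMP10 were at low levels in control monolayers, higher after heat shock alone, higher after wounding alone, and highest after heat shock followed by wounding, by 15.6-fold and 14.3-fold over control. TIMP1 and TIMP2 rose in the combined group by 1.40-fold and 1.49-fold. TIMP3, MMP3 and MMP9 also rose there, at levels that were low in every group. On the probe set used for each, MMP2, MMP13 and MMP14 did not pass the test in any comparison, though another MMP14 probe set did.

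The sequence before MMP10 is shown because MMP10 was one of the pair that moved most, and that before TIMP1 because it is an inhibitor whose change was small. RefSeq promoter windows of assembly GRCh38.p14, from 250 bases before to 50 bases after the annotated start, were at hand for 4 of the 10 genes (MMP10, MMP14, TIMP1 and TIMP3). The MMP10 window lies at chr11:102780579-102780878 on the minus strand. The TIMP1 window lies at chrX:47582186-47582485 on the plus strand. Capitals mark matches to a searched motif, and each run reads 5′ to 3′ along its gene.
MMP10: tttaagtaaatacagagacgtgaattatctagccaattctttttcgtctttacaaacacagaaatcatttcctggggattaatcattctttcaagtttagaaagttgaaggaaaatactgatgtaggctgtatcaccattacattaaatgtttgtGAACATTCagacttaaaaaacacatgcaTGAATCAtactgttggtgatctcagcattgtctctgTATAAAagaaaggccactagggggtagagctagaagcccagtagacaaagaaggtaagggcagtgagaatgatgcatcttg
TIMP1: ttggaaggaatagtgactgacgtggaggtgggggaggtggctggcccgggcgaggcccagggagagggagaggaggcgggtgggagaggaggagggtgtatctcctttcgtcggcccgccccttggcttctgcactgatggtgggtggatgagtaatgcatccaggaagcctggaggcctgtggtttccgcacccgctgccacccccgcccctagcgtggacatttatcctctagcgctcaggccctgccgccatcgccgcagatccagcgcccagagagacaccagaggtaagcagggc

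Motifs were searched on both strands of the windows. TGAGTCA is the consensus AP-1 site and is one form of the looser TGANTCA, GAANNTTC is a pair of inverted heat shock units, TATAAA is a TATA box and AGGAAGT is an ETS site. The MMP10 window held the AP-1-like TGAATCA, whose first base is at -67 from the start. It also held GAACATTC at -95 and TATAAA at -31, and neither TGAGTCA nor AGGAAGT. The windows of MMP14, TIMP1 and TIMP3 held no exact match to any of the 5 motifs. Forms that differ by a letter were not searched, and the TIMP1 window reads TGAGTAA and AGGAAGC. The lack of an exact match therefore does not show that a window lacks AP-1 or ETS sites. Of 35116 RefSeq windows of the same length, 7.71% held TGANTCA, 6.77% GAANNTTC, 11.5% TATAAA, 4.95% TGAGTCA and 8.24% AGGAAGT. The MMP10 window had 36.3% GC and the TIMP1 window 65.0%, against a median of 58.7% over those windows. These matches describe the letters and were not tested as binding sites.

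Values are on the authors' log2 scale. Over the 44987 single-symbol probe sets, correlations between arrays were 0.994 to 0.998 within groups and 0.987 to 0.997 between them. The treatments showed in genes known to respond to them. HSPA6, a strictly stress-induced HSP70 gene, averaged a log2 level of 10.76 after both treatments and 10.09 after heat shock, with 4.61 after wounding and 4.30 in control. EGR1, an immediate early gene, averaged 8.01 after both and 8.02 after wounding, with 6.06 after heat shock and 5.03 in control. The chaperone genes DNAJB1 and HSPB1 rose by 2.03 and 1.68 after both treatments, and by 1.98 and 1.76 after heat shock, and neither passed after wounding. All 8 epithelial and A549 markers stood above 4.74 in every group, the level used here to call a value low. It is the upper quartile of the control means of 22 genes that mark endothelium and leukocytes, is no detection call, and 36.8% of all genes had a control mean under it. Of the alveolar type II markers 5 of 8 stood above it in every group, while SFTPA1, SFTPD and LAMP3 did not. After both treatments CDH1 alone of the epithelial markers was called, lower than control by 0.26 (adjusted p = 0.0149). Of the type II markers, NKX2-1 was higher by 0.41 (adjusted p = 0.0107) and ABCA3 lower by 0.27 (adjusted p = 0.0349). Neither list had a call after a single treatment against control. Array 2 of the combined group stood apart, with a within-array interquartile range of 3.98, against 4.13 to 4.24 on the other arrays. The 6670 genes whose mean over the 12 arrays was under 4.74 sat a median of 0.12 above that mean on this array.

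**Figure D1:**
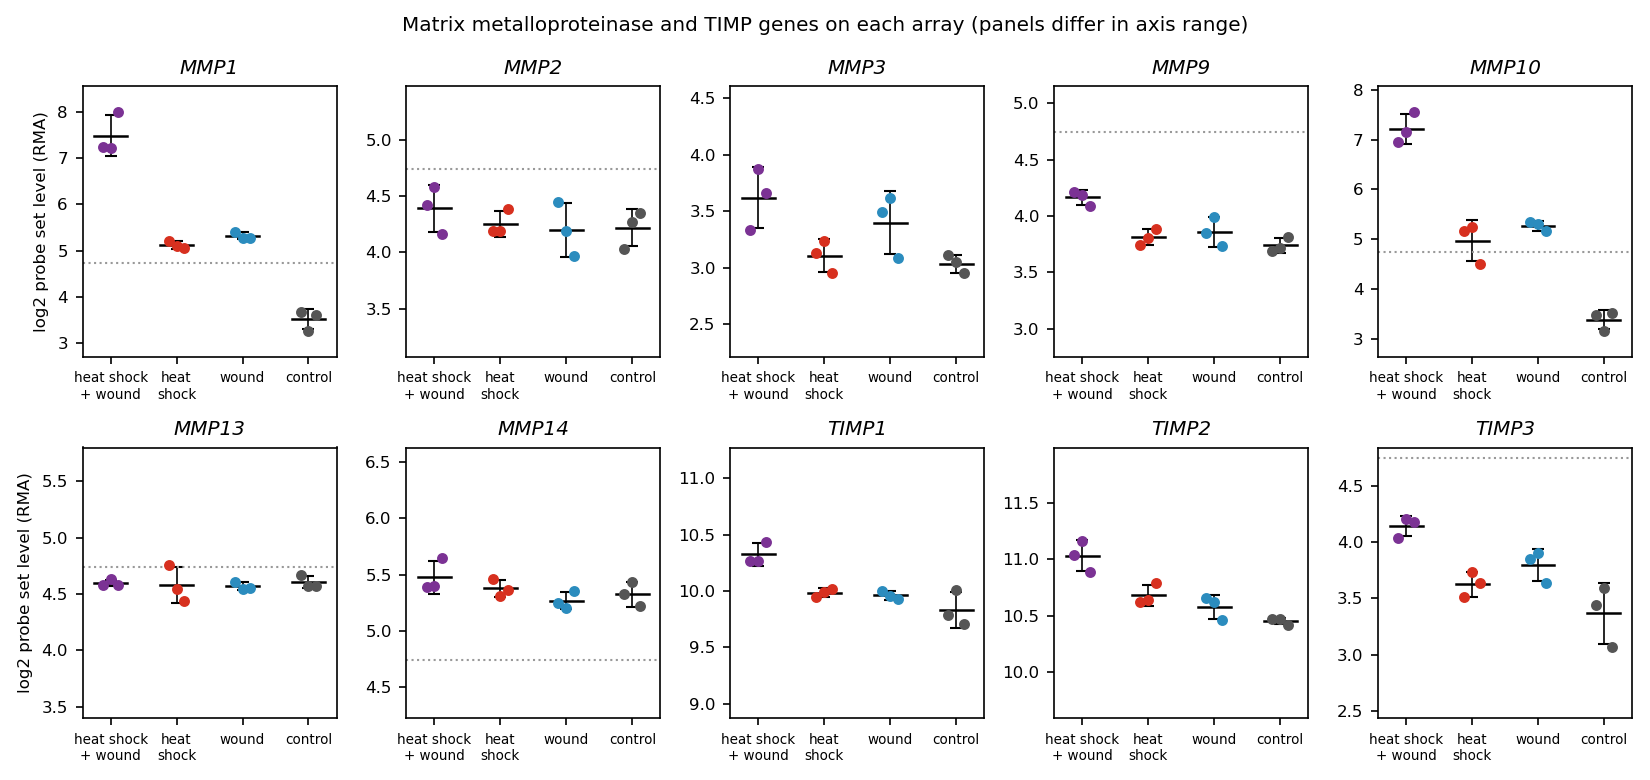
Log2 level (y axis) of each of the 10 genes on each array, by group (x axis), with points for arrays, the group mean as a line and the SD as a bar (n = 3). The dotted line is the low level of 4.74. MMP1 and MMP10 form 3 steps, with the combined group at the top, the single treatments between and control at the bottom.

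Among the collagenases, MMP1 is the interstitial collagenase that opens the triple helix of fibrillar collagens. Its log2 level was 7.24, 7.22 and 8.0 in heat shocked and wounded monolayers, 5.22, 5.11 and 5.05 in heat shocked ones, 5.41, 5.28 and 5.28 in wounded ones, and 3.68, 3.27 and 3.61 in controls. The combined arrays all stood above the single treatments, and these all stood above control, with no overlap. Against control, the log2 difference of MMP1 was 3.96 ± 0.18 after both treatments (SE, limma adjusted p = 3.88e-08). It was 1.61 ± 0.18 after heat shock, a 3.04-fold rise (adjusted p = 0.000104), and 1.80 ± 0.18 after wounding, a 3.48-fold rise (adjusted p = 0.000120). By size of difference MMP1 ranked 3 of 18132 genes in the combined group against control, 33 after heat shock and 7 after wounding.

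MMP13, collagenase 3, also cuts fibrillar collagen and is best known from cartilage and bone. Its log2 level lay between 4.44 and 4.75 on all 12 arrays, under 4.74 as a mean in every group. The MMP13 difference after both treatments was 0.00, with a 95% interval of -0.17 to 0.16, and it passed in no comparison. In the order of its group means no neighbours differed beyond their spread.

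MMP10, or stromelysin 2, cuts matrix proteins and activates other proMMPs. Its log2 level was 6.96, 7.15 and 7.55 after both treatments, 5.17, 5.24 and 4.49 after heat shock, 5.34, 5.31 and 5.16 after wounding, and 3.48, 3.16 and 3.51 in control. The order was the same as for MMP1, the single treatments overlapped each other, and array 3 of the heat shocked group was the lowest of the treated arrays. The log2 difference from control was 3.84 ± 0.19 after both (adjusted p = 8.90e-08), 1.58 ± 0.19 after heat shock, a 2.99-fold rise (adjusted p = 0.000204), and 1.89 ± 0.19 after wounding, a 3.70-fold rise (adjusted p = 0.000154). MMP10 ranked 4 of 18132 genes by size in the combined group, 37 after heat shock and 5 after wounding. The control means of MMP1 and MMP10 were both under the low level of 4.74, so these folds are set against a low value.

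MMP3, or stromelysin 1, is a near relative of MMP10 with a broad range of substrates. Its log2 level was 3.33, 3.87 and 3.66 after both treatments, 3.13, 3.24 and 2.95 after heat shock, 3.49, 3.62 and 3.09 after wounding, and 3.11, 3.05 and 2.95 in control. The combined arrays lay above all control arrays, while the single treatments overlapped control, and every value was under the low level. MMP3 was 0.59 ± 0.15 higher after both treatments than in control (adjusted p = 0.0124). Without array 2 of the combined group the difference was 0.46 and missed the threshold (adjusted p = 0.0519). Heat shock gave 0.07 (adjusted p = 0.837) and wounding 0.36 (adjusted p = 0.293).

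The gelatinases MMP2 and MMP9 degrade denatured collagen and type IV collagen of basement membranes. MMP9 had a log2 level of 4.21, 4.18 and 4.09 after both treatments, 3.74, 3.81 and 3.88 after heat shock, 3.85, 3.99 and 3.73 after wounding, and 3.69, 3.72 and 3.82 in control. The combined arrays stood above all 9 others, within a range of less than 1 log2 unit and under the low level. The log2 difference of MMP9 from control was 0.42 ± 0.08 after both (adjusted p = 0.00162), 0.07 after heat shock (adjusted p = 0.664) and 0.12 after wounding (adjusted p = 0.595). MMP2 lay between 3.97 and 4.58 on all arrays, its groups overlapped, and its difference after both treatments was 0.17 (95% interval -0.12 to 0.46, adjusted p = 0.424).

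MMP14 is a membrane-anchored MMP that activates proMMP2 at the cell surface, with TIMP2 as a bridge. Its log2 level ran from 5.21 to 5.65 over all arrays, above the low level in every group, with the control arrays at 5.32, 5.44 and 5.22. The difference after both treatments was 0.15 (95% interval -0.04 to 0.34, adjusted p = 0.251), after heat shock 0.05 and after wounding -0.06. Neither single treatment passed for MMP14.

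The log2 differences of the inhibitors after both treatments were smaller than those of MMP1 and MMP10. TIMP1, a secreted inhibitor of most MMPs, had a log2 level of 10.26, 10.27 and 10.44 after both treatments, 9.94, 9.99 and 10.02 after heat shock, 10.00, 9.95 and 9.93 after wounding, and 9.78, 10.01 and 9.71 in control. The combined arrays lay above the rest, and the single treatments overlapped control array 2. TIMP1 was 0.49 ± 0.08 higher after both than in control, a 1.40-fold rise (adjusted p = 0.000904), with 0.15 after heat shock (adjusted p = 0.285) and 0.13 after wounding (adjusted p = 0.587).

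TIMP2 inhibits MMPs and takes part in proMMP2 activation. Its log2 level was 11.04, 11.16 and 10.89 after both treatments, 10.62, 10.64 and 10.79 after heat shock, 10.66, 10.62 and 10.46 after wounding, and 10.47, 10.47 and 10.42 in control. The combined arrays were the highest, the heat shocked ones stood above control without overlap, and wounded array 3 lay within the control range. Over all genes, 31.3% showed no overlap between heat shock and control, in either direction. TIMP2 rose by 0.58 ± 0.08 after both, 1.49-fold (adjusted p = 0.000279). Heat shock gave 0.23 (adjusted p = 0.0954) and wounding 0.13 (adjusted p = 0.587).

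TIMP3 binds to the matrix and also inhibits ADAM proteases. Its log2 level was 4.04, 4.21 and 4.18 after both treatments, 3.51, 3.73 and 3.63 after heat shock, 3.85, 3.90 and 3.63 after wounding, and 3.44, 3.59 and 3.07 in control. The combined arrays stood above all others, control array 3 was the lowest, and all values were under the low level. TIMP3 rose by 0.77 ± 0.12 after both, 1.71-fold (adjusted p = 0.000625), with 0.26 after heat shock (adjusted p = 0.220) and 0.43 after wounding (adjusted p = 0.0966, or 0.0491 without control array 2).

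Counted over the 10 genes, heat shock followed by wounding raised 7 against control and lowered 0, while 23.1% of all genes were called in either direction and 8.66% higher. Heat shock alone raised 2 (MMP1 and MMP10), with 12.9% of all genes called and 4.93% higher. Wounding alone raised the same 2, with 3.57% of all genes called and 2.27% higher. These 3 comparisons share the control arrays. In the same order, arrays did not overlap for 7, 3 and 3 of the 10 genes, and for 37.4%, 31.3% and 21.9% of all genes. The median log2 difference of the 10 genes was 0.54 after both, 0.11 after heat shock and 0.13 after wounding, and over all genes it was -0.01, -0.03 and -0.03. MMP3, MMP9 and TIMP3 were among the 6670 genes whose mean over the 12 arrays was under 4.74. Of these, 3.54% were called higher after both treatments, and 2.71% without array 2 of the combined group. That mean includes the treated arrays, and MMP1 and MMP10 are not among these genes. In RNA from whole monolayers, a change in the number of cells that express a gene and one in RNA per cell cannot be told apart.

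**Figure D2:**
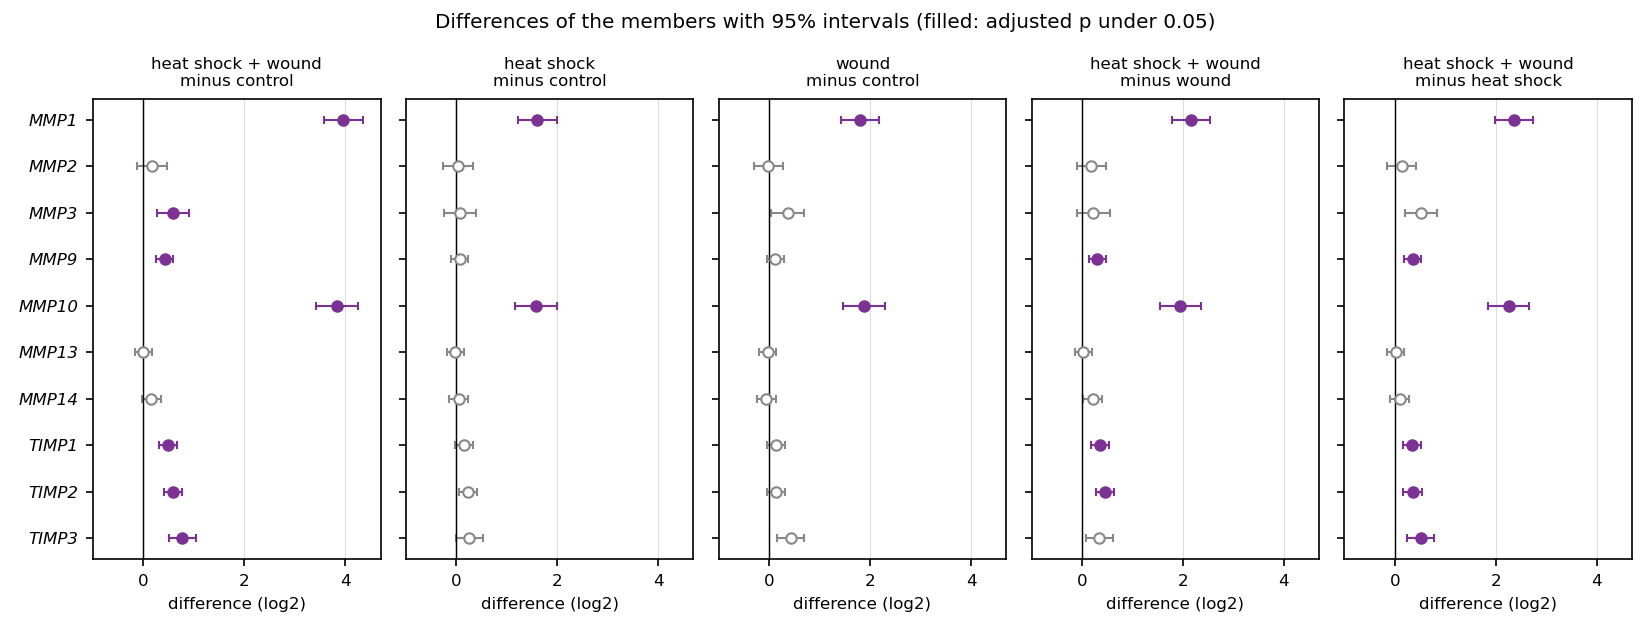
Log2 difference of each gene (rows) in 5 comparisons (panels), with 95% intervals, and filled points where the limma adjusted p is under 0.05. In the panel of both treatments against control 7 points are filled, and in each panel of a single treatment against control only MMP1 and MMP10 are.

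Set against wounding alone, the added heat shock showed in 5 of the 10 genes, all higher, while 14.9% of all genes were called and 6.31% higher. MMP1 was 2.16 ± 0.18 higher on the log2 scale, a 4.48-fold difference (adjusted p = 1.47e-05), and MMP10 was 1.95 ± 0.19 higher, a 3.86-fold difference (adjusted p = 4.94e-05). TIMP2 was 0.45 higher (adjusted p = 0.00339), TIMP1 0.36 (adjusted p = 0.0109) and MMP9 0.30 (adjusted p = 0.0198). TIMP3, at 0.35, did not pass (adjusted p = 0.0829) and would without control array 3 (adjusted p = 0.0295). It was also called with its probe sets averaged, and with the probe set of largest SD, at 0.70. Its remaining probe set gave 0.39 and was not called. MMP9 lost its call without array 1 or 2 of the combined group or array 1 or 3 of the wounded group, with adjusted p up to 0.0761.

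Set against heat shock alone, the combined group was called in 6 of the 10 genes, all higher, while 4.3% of all genes were called and 2.71% higher. The time of lysis after heat shock alone is not given, so wounding and a difference in time cannot be told apart here. MMP1 was 2.36 ± 0.18 higher, a 5.12-fold difference (adjusted p = 3.24e-05), and MMP10 was 2.25 ± 0.19 higher, a 4.77-fold difference (adjusted p = 5.92e-05). MMP1 ranked 2 and MMP10 ranked 4 of 18132 genes by size in this comparison. TIMP3 was 0.52 higher (adjusted p = 0.0341), MMP9 0.35 (adjusted p = 0.0213), TIMP2 0.35 (adjusted p = 0.0332) and TIMP1 0.34 (adjusted p = 0.0372). The count for the 10 genes fell to 2, MMP1 and MMP10, when array 2 of the combined group or array 1 or 2 of the heat shocked group was left out. With each of the 12 arrays left out in turn, MMP9 kept this call 8 times, TIMP2 and TIMP3 each 6 times and TIMP1 3 times, with adjusted p up to 0.0926, 0.124, 0.128 and 0.125 in that order. All 6 arrays of these groups were among those whose removal cost TIMP1 its call, all but array 1 of the combined group for TIMP3, and array 1 or 2 of either group for MMP9 and TIMP2.

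Heat shock alone and wounding alone were also set against each other, and their times of lysis may differ. By limma 0 of the 10 genes passed, while 10.5% of all genes were called. The count at an unadjusted p under 0.05 was 0 of the 10, and 4047 of all 18132 genes. MMP1 was lower by 0.19 after heat shock than after wounding (95% interval -0.57 to 0.19, adjusted p = 0.609), although its arrays did not overlap. Over all genes, 28.3% showed no overlap between these groups, in either direction. MMP10 was lower by 0.30 after heat shock (95% interval -0.72 to 0.11, adjusted p = 0.409). The intervals therefore leave a heat shock level between 0.671 and 1.14 times the wound level for MMP1, and between 0.608 and 1.08 times for MMP10.

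The interaction asks whether both treatments together differ from the sum of the single log2 differences. The unstated time of lysis after heat shock alone enters this estimate too. By limma 0 of the 10 genes passed, and 0.00552% of all genes did, which is 1 gene, FGF1. At an unadjusted p under 0.05 the count was 1 of the 10 (MMP1) and 7.18% of all genes. The estimate was above 0 for all 10, which share the arrays, with a median of 0.18 against 0.04 over all genes. Over the 6670 genes whose mean over all arrays was under the low level, the median was 0.10 and 71.0% were above 0. Without array 2 of the combined group that median was 0.06. Of the 10 genes this class holds only MMP2, MMP3, MMP9, MMP13 and TIMP3, and so neither MMP1 nor MMP10. The sign turned in 1 or more alternatives for MMP2, MMP3, MMP13, MMP14 and TIMP3, so the shared sign is not a stable result. For MMP1 the product of the single folds was 10.6 and the combined fold 15.6, an interaction of 0.56 (95% interval 0.02 to 1.09, adjusted p = 0.683). For MMP10 the product was 11.1 and the combined fold 14.3, an interaction of 0.37 (95% interval -0.22 to 0.95, adjusted p = 0.819). All these folds share control means under the low level, so the products and interactions rest on low values. On another MMP1 probe set the interaction was 0.00. Without array 3 of the combined group, the array with the highest MMP1, the MMP1 interaction was 0.30.

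**Figure D3:**
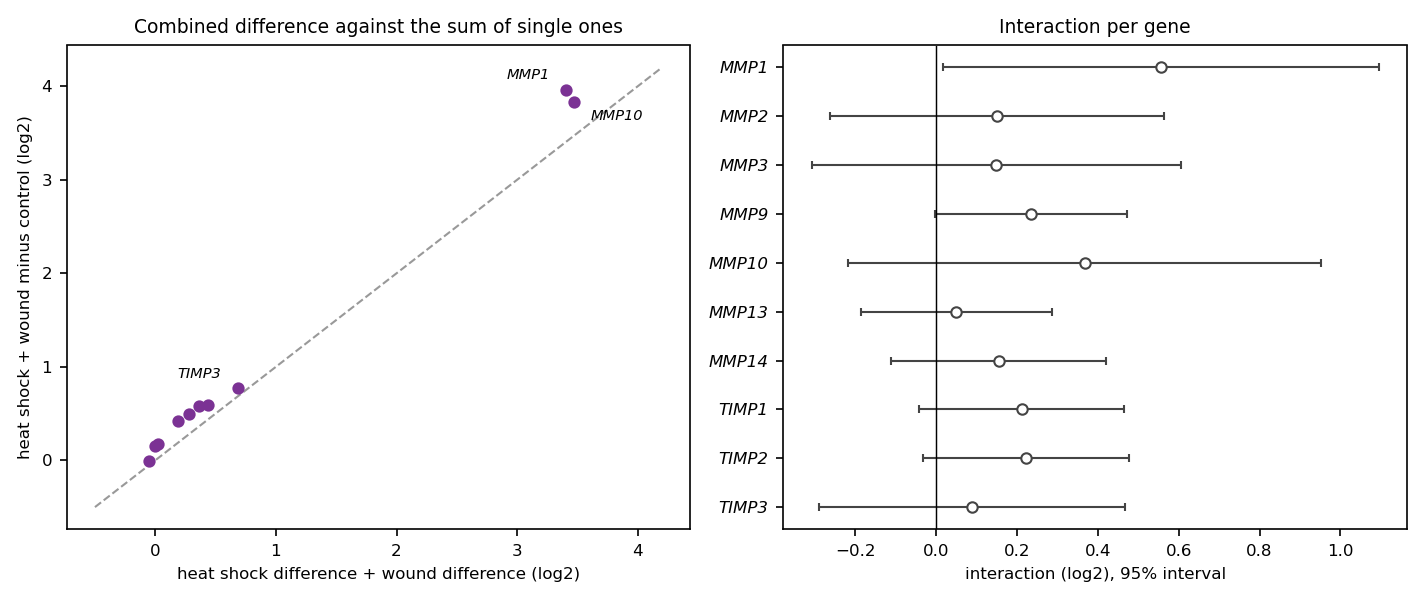
Left, the log2 difference of both treatments from control (y axis) against the sum of the single differences (x axis) for the 10 genes, with the line of equality dashed. Right, the interaction per gene with its 95% interval. All 10 estimates lie above 0, and the interval of MMP1 alone does not reach 0.

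The other 16 probe sets were read in a fit over all 44987, added after the data had been seen. MMP1 has a second probe set, at 7.07, 7.32 and 7.96 after both treatments, 5.07, 5.10 and 4.76 after heat shock, 5.50, 5.38 and 4.98 after wounding, and 2.75, 2.87 and 2.82 in control. Its groups stood in the same steps as the first, but the control arrays read lower. Its log2 difference from control was 4.64 after both, a 24.9-fold rise (adjusted p = 1.47e-08), 2.16 after heat shock and 2.47 after wounding. The MMP1 probe sets disagreed on additivity, since the interaction was 0.00 on this one and 0.56 on the other.

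TIMP1 has a second probe set near the level of its first, which was 0.53 higher after both treatments (adjusted p = 0.000527), and another near 4.50 that was not called (-0.04). The second probe set of TIMP2 rose by 0.55 (adjusted p = 0.000744), and those of TIMP3 rose by 0.58 and 0.90. One of the other probe sets of MMP14 was called higher after both, by 0.34 (adjusted p = 0.0213), and the other 3 of MMP14 were not. None of the 4 probe sets of MMP2 or the 5 of MMP13 passed in that comparison. The called MMP14 probe set was also 0.31 higher after both treatments than after wounding alone (adjusted p = 0.0434). MMP3, MMP9 and MMP10 each have a single one.

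**Figure D4:**
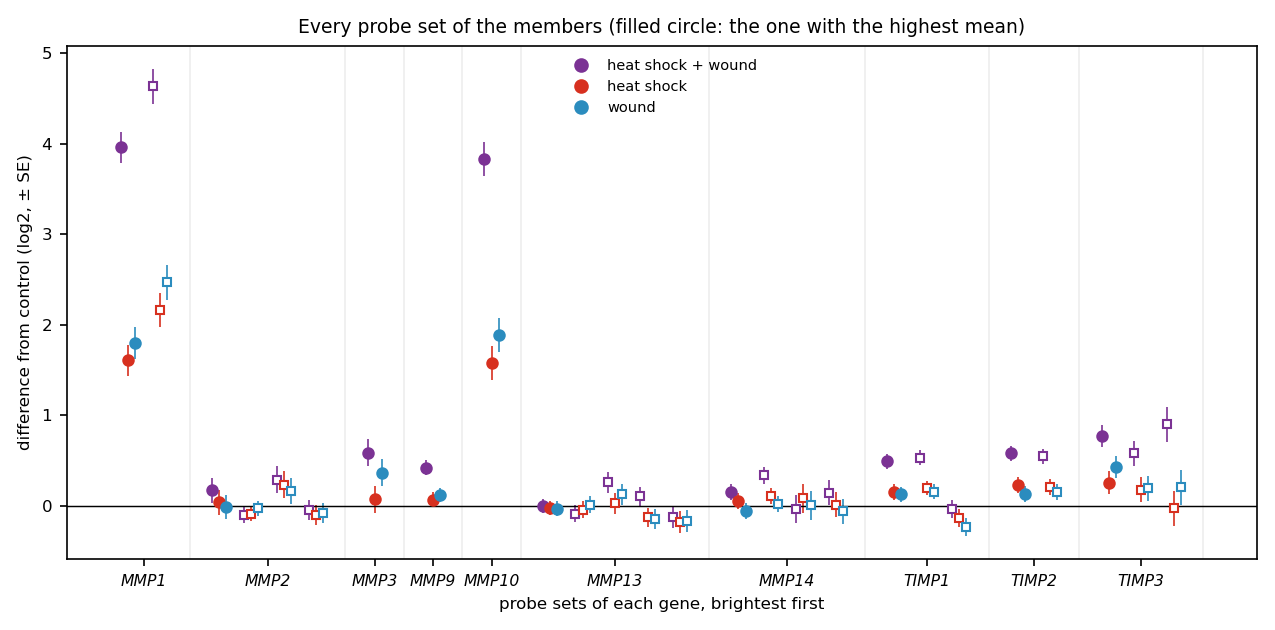
Log2 difference from control (y axis, ± SE) of all 26 probe sets, grouped by gene from the brightest to the dimmest (x axis), after both treatments, heat shock and wounding. Filled circles are the probe sets used for the gene and open squares the others. Both MMP1 probe sets and the MMP10 one stand well above the rest.

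Protease and inhibitor were also compared within each array, as the log2 level of the protease minus that of the inhibitor, whose own height depends on the probes. MMP1 minus TIMP1 was -3.03, -3.05 and -2.44 after both treatments, -4.73, -4.88 and -4.97 after heat shock, -4.60, -4.67 and -4.65 after wounding, and -6.10, -6.74 and -6.10 in control. It stood higher than in control by 3.47 after both, 1.45 after heat shock and 1.67 after wounding. The same difference for MMP10 was 3.35, 1.43 and 1.76. For both against control the exact two-sided permutation test gave p = 0.1 for each, the smallest that 3 arrays against 3 allow. Transcript levels do not give the activity of either protein.

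MMP1, MMP3, MMP10 and MMP13 belong to a run of 9 measured MMP genes on chromosome 11, in the order MMP7, MMP20, MMP27, MMP8, MMP10, MMP1, MMP3, MMP12 and MMP13. In the combined group 3 adjacent genes, MMP10, MMP1 and MMP3, were called higher than control, while 23.1% of all genes were called and 8.66% higher. MMP3 lay under the low level on every array and missed the threshold without array 2 of the combined group (adjusted p = 0.0519). MMP7, matrilysin, an epithelial MMP, averaged 10.57 ± 0.04 after both treatments, 10.54 ± 0.24 after heat shock, 10.95 ± 0.16 after wounding and 10.56 ± 0.11 in control (SD, n = 3 each). It did not pass after both (0.01, adjusted p = 0.966) or after wounding (0.39, adjusted p = 0.101). MMP7 was lower after both than after wounding alone by 0.38 (adjusted p = 0.0418), and lower after heat shock than after wounding by 0.42 (adjusted p = 0.0357). MMP20, MMP27, MMP8 and MMP12 stayed under the low level in every group and passed in no comparison with control.

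**Figure D5:**
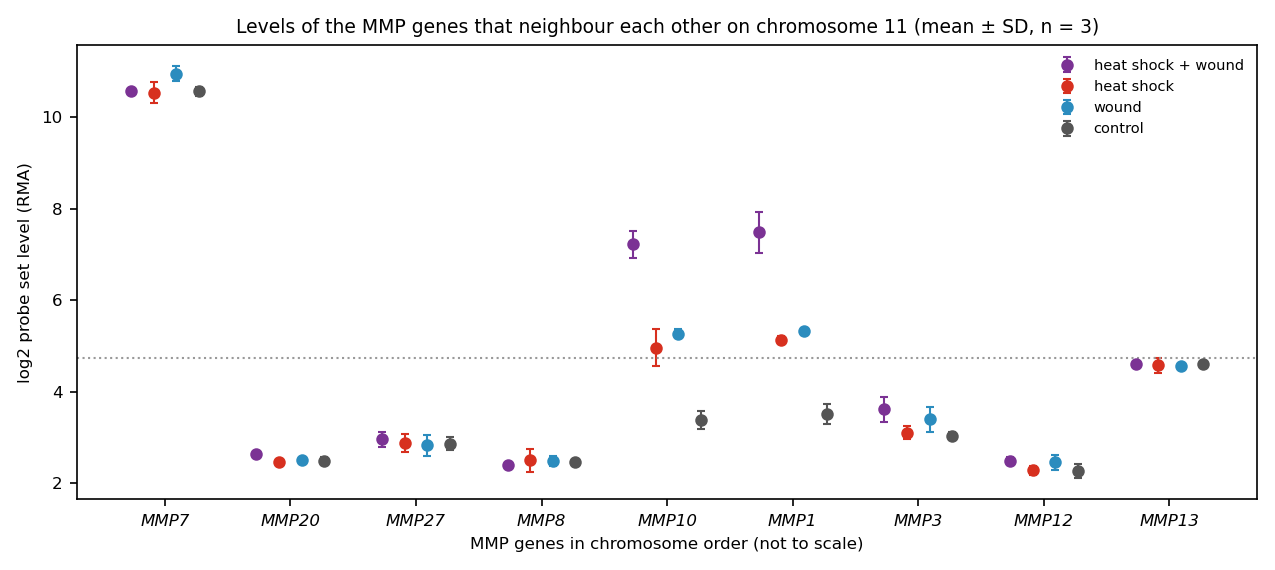
Mean log2 level (y axis, ± SD, n = 3) of the 9 MMP genes of the run, in chromosome order (x axis, not to scale), in the 4 groups, with the low level of 4.74 dotted. Levels compare groups within a gene and not genes with each other. MMP10 and MMP1, next to each other, are spread over about the same steps.

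Likeness of pattern was measured as the root mean square difference of log2 values over the 12 arrays, each gene centred on its mean. The gene nearest to MMP1 was MMP10, at 0.18, and nearest to MMP10 was MMP1. After it came FAM43A (0.45), ARL14 (0.48), KANK4 (0.49) and GEM (0.54) for MMP1, and FAM43A (0.37), KANK4 (0.40), ARL14 (0.41) and SNAI2 (0.44) for MMP10. SNAI2 encodes the transcription factor SLUG. FAM43A averaged 7.81 after both treatments, 5.61 after heat shock, 6.34 after wounding and 4.69 in control. The arrays are shared, so these are descriptions without a test.

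Of 15 other MMP genes measured, 2 rose and 1 fell after both treatments against control, none passed after heat shock and 1 fell after wounding. Beside this list and those that follow stand the shares over all genes. After both treatments 23.1% were called and 8.66% higher. The shares were 12.9% and 4.93% after heat shock, and 3.57% and 2.27% after wounding. MMP24, a membrane-type MMP, was lower by 0.64 after both (adjusted p = 0.00129) and by 0.46 after wounding (adjusted p = 0.0433). MMP19 was higher by 0.43 and MMP17 by 0.29 after both. MMP7 and MMP15, the brightest that did not pass after both, differed by 0.01 and -0.15. MMP23B was not analysed here.

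Among 14 measured regulators of MMP protein activity, 6 rose and 0 fell after both treatments, 3 rose after heat shock and 4 after wounding. PLAUR, the urokinase receptor that gathers plasmin generation at the cell surface, rose by 1.37 after both (adjusted p = 2.89e-07), by 0.71 after heat shock and by 0.52 after wounding. SERPINE2, a serine protease inhibitor that blocks urokinase and thrombin, rose by 1.11, 0.38 and 0.73. FURIN, a convertase that activates membrane-type MMPs, rose by 0.83, 0.40 and 0.52. SPOCK1, a matrix proteoglycan, was 1.11 higher after both and did not pass after either single treatment. CD44 and TFPI2, the brightest that did not pass after both, differed by 0.07 and -0.04.

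Among 12 AP-1 and ETS factors known at MMP promoters, 6 rose and 2 fell after both treatments, 5 rose and 1 fell after heat shock, and 5 rose after wounding. ETS2 rose by 1.92 after both (adjusted p = 5.41e-08), 0.85 after heat shock and 1.05 after wounding. JUNB rose by 1.78, 0.82 and 1.04, ETS1 by 1.72, 1.04 and 0.74, and JUN by 1.71, 0.64 and 1.30. FOS rose by 1.54 after both and 2.04 after wounding, and its difference after heat shock was 0.08 (adjusted p = 0.826). ETV4 and ELK1 differed by 0.02 and 0.08 after both and did not pass.

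Of 11 measured matrix proteins that MMPs can cut, 5 rose and 0 fell after both treatments, 4 rose and 1 fell after heat shock, and 4 rose after wounding. LAMB3, a chain of laminin-5 of the epithelial basement membrane, rose by 1.57 after both (adjusted p = 6.58e-07), 0.56 after heat shock and 0.89 after wounding. COL4A1 rose by 1.17, 0.48 and 0.75, and COL7A1, the anchoring fibril collagen, by 1.04, 0.75 and 0.62. COL1A1 was 1.05 higher after both and 0.78 higher after heat shock, and did not pass after wounding (0.31). FN1 and VCAN differed by -0.09 and 0.01 after both and did not pass.

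Of 15 ADAM and ADAMTS metalloproteinases, 2 rose and 2 fell after both treatments, 0 rose and 1 fell after heat shock, and 2 rose after wounding. ADAMTS9, a proteoglycan-cutting protease, was lower by 0.76 after both (adjusted p = 0.00281) and by 0.63 after heat shock. ADAM19 was 0.68 higher after both and 0.80 higher after wounding. ADAM10 was lower by 0.53 and ADAM17 was 0.23 higher after both, and both of these proteases shed cell surface proteins. ADAM9 and ADAM15, the brightest that did not pass, differed by 0.03 and -0.14.

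Markers of cells other than epithelium were also read, since stromal and blood cells make MMPs and TIMPs. Of 8 fibroblast markers, 1 stood above the low level in each group, 0 rose in any comparison with control, and 1 (COL3A1) fell after heat shock. Of 12 leukocyte markers 0 were called in any comparison. The low level was set from these and the endothelial markers, so the number of them above it does not measure such cells. Of 10 endothelial markers, 2 (ESAM and TIE1) were higher after both treatments than in control. The log2 of the summed endothelial markers was 7.88 to 8.06 after both, 7.74 to 7.85 after heat shock, 7.66 to 7.77 after wounding and 7.67 to 7.71 in control. ESAM averaged 6.43 after both and 5.93 in control, and TIE1 5.42 after both and 5.14 in control. PECAM1, CDH5, TEK, KDR, CLDN5, EMCN and ERG stayed under the low level in every group, and VWF stood above it in the combined group only, at 4.78. The part of these markers in the differences of MMPs and TIMPs was not tested.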

How the data were processed

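Total RNA of A549 monolayers (100 ng each) was hybridised to 12 PrimeView arrays, per the labels' protocols. The table holds deposited log2 values for each probe set. The submitters' processing notes name RMA and Affymetrix Expression Console, without a version. RMA sets the probe intensities of all arrays to 1 distribution and can compress differences of dim probe sets. The probe set values themselves still differed in spread, with interquartile ranges of 3.98 to 4.24. No scanner values were used here. The number of arrays limits the precision.

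Of 49293 probe sets, 44988 had 1 gene symbol in the platform annotation, 1832 had several and 2473 were not listed; 1 with a missing value was left out. Of the single-symbol ones 44960 matched RefSeq (GRCh38.p14) by gene ID. The brightest probe set stood for each of 18132 genes.

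Groups came from the labels. limma 3.58.1 in R 4.3.3 fitted 1 mean per group to all 12 arrays (8 residual degrees of freedom), with 7 comparisons. A call required an adjusted p (Benjamini-Hochberg, over all genes) under 0.05, and every adjusted p comes from limma. Values after ± are SE for differences and SD for levels. Tests were checked on simulated data.

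The members and lists were chosen with earlier results of these data known. All members were named. From each list up to 4 called genes by size after both treatments and 2 uncalled ones of highest mean were named, with the 5 genes nearest in pattern to MMP1 and to MMP10 and fixed treatment checks. FGF1 and the cell type markers were named after their values were seen.

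Alternatives were other normalizations, other probe set choices, a filter on dim genes, other variance settings, fewer groups, blocks, averaging of arrays by description code, and leaving out each array.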

Additional observations from a re-analysis of the deposited data

How the results depend on the processing

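Over 23 alternatives, 12 of which left out 1 array, the differences of the 10 genes were recomputed 1586 times: 1531 kept their call or lack of it, 46 lost a call, 9 gained one and 0 called differences reversed, while 47 changed sign where neither fit called them. MMP1 and MMP10 kept every call. Losses fell on MMP9 (14), TIMP1 (13), TIMP2 (9), TIMP3 (9) and MMP3 (1). After both treatments against heat shock, 3 of the 10 were called with only the groups compared, 2 with the arrays coded S2a and S2b averaged, and 2 to 7 without 1 array (2 without combined array 2, or heat shock array 1 or 2). With S2a and S2b averaged, which leaves fewer samples, all genes called were 2475 (both against control), 919 (heat shock against control), 224 (wound against control), 1104 (both against wound), 333 (both against heat shock), 835 (heat shock against wound) and 0 (interaction). With only the groups compared they were 1663 for both against wound and 300 for both against heat shock. The interaction called 0 genes with probe sets averaged and 2 with a robust variance trend. Without 1 array, all genes called ran from 1438 to 2594 (heat shock against control), 306 to 722 (wound against control), 1649 to 2936 (both against wound), 498 to 790 (both against heat shock), 1182 to 2174 (heat shock against wound) and 1 to 2 (interaction). Single arrays moved a count by over 1.5 times: heat shock array 1 and control arrays 1 and 2 for heat shock against control, wound arrays 1 and 2 and each control array for wound against control, wound array 1 for both against wound, combined array 2 and heat shock array 2 for both against heat shock, heat shock array 1 and wound arrays 1 and 2 for heat shock against wound, and control array 3 for the interaction. The cause was not tested. Labels do not say that replicate numbers mark a shared batch. Deviations from group means correlated over 0.1 in 6 of 18 same-numbered pairs (median 0.06), 5 of 12 pairs of another number but the same code (median 0.07) and 2 of 24 others (median -0.10), so the numbers were not taken as pairs. With a replicate block 7 of the 10 genes were called after both against control, 2 after each single treatment, 5 against wound and 6 against heat shock (MMP3 gained, TIMP1 lost), and 4230 genes in all after both against control. Cyclic loess called 1935 genes higher of 3863 called after both and 1092 of 2202 after heat shock, where the reported fit called 1571 of 4180 and 894 of 2330 higher.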
